A study of Mus musculus with 48 samples.

Results

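Transcripts for 8 proteins that astrocytes release or shed, Apoe, Clu, Cst3, Cpe, Itm2b, Itm2c, App and Aplp2, were followed in ribosome-bound RNA of whole astrocytes and of their perisynaptic processes. The 8 were chosen by symbol, as secreted products measured at a high level in these same libraries, out of 47643 Ensembl genes listed in the files, and all 8 were found. Because their measured values led to their choice, their levels and differences below are a description. Ribosomes were pulled down by translating ribosome affinity purification from the dorsal hippocampus of Aldh1l1:L10a-eGFP mice, given in the labels as strain Tg(Aldh1l1-eGFP/Rpl10a) JD130Htz, in which the astrocyte promoter of Aldh1l1 drives ribosomal protein L10a tagged with enhanced green fluorescent protein. All samples of both groups came from mice with this transgene, untreated as far as the labels say, and the antibody was directed against the fluorescent protein. The Astro group was RNA from full astrocytes and the PAP group was RNA from perisynaptic astrocytic processes, the fine branches that contact synapses. Both groups came from the same 3 animals. The 8 technical replicates of a sample were summed, which gave 6 libraries. Age, sex and the way the processes were separated are not given in the sources used here.

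In the brain these proteins meet outside the cell. Apolipoprotein E (Apoe) is the main lipid carrier that astrocytes secrete, clusterin (Clu, apolipoprotein J) is a secreted chaperone found on the same kind of particle, and cystatin C (Cst3) is a secreted inhibitor of cysteine proteases. Carboxypeptidase E (Cpe) trims prohormones in secretory granules. App, the amyloid precursor protein, and its relative Aplp2 span the membrane and release their outer part after cleavage by secretases, and Itm2b and Itm2c are membrane proteins cleaved by furin-like enzymes and known to bind App.

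The starts of the coding sequences are given here beside the known routes of these proteins into the secretory pathway. Codon counts alone do not show a route. The first 75 coding bases (25 codons) of each GENCODE M21 principal transcript are printed for the apolipoprotein pair and for the Itm2 pair, which enter it differently. Capitals mark codons with T at the second position, which encode the hydrophobic residues phenylalanine, leucine, isoleucine, methionine and valine.
Apoe: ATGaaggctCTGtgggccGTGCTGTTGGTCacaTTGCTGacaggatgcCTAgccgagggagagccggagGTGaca
Clu: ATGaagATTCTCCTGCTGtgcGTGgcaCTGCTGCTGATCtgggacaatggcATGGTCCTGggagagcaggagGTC
Itm2b: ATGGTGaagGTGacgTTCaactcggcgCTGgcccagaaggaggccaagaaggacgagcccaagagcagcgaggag
Itm2c: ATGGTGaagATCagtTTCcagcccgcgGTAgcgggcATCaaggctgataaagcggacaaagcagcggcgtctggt
Such codons make up 14 of the 25 in Clu and 10 in each of Apoe, Cst3 and App, against a median of 28.0% of codons over 12577 tested coding genes. Clu, at 56.0%, lay above 98.3% of those genes. Cpe and Aplp2 had 9, a number reached or passed by 27.9% of tested genes. A cleaved signal peptide begins each of these 6 proteins. Itm2b and Itm2c, which carry their membrane anchor further inside, had 5 and 6, below the median. Against a median transcript of 3050 bases, 6 members were shorter, namely Cst3 (860), Apoe (1408), Itm2b (1796), Clu (1810), Cpe (2117) and Itm2c (2230), and App (3176) and Aplp2 (3634) were longer. The 3′ untranslated region ran from 230 bases in Clu to 1314 in Aplp2, with a median of 1046 over the tested genes, and Aplp2 alone was above that median.

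The pooled Astro libraries held 18707844 to 20293538 counts and the PAP libraries 1829962 to 2980984, so depth and compartment cannot be told apart. A count of 3 corresponded to 0.152 to 0.176 CPM (a depth-normalised read count, adjusted by TMM factors) in Astro and to 0.991 to 1.55 CPM in PAP. No member came near that limit, since the lowest held 111 counts in PAP and 1418 in Astro. All 12 astrocyte markers were detected in every library apart from Fgfr3, at 0 in PAP of animal 1, and their summed level was 24070 to 32550 CPM in Astro and 3658 to 14350 CPM in PAP. Intervals and floors cover counting error only. In bulk libraries, fewer cells of a type and less RNA per cell cannot be told apart, and p-values measure the spread between 3 animals.

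The 8 members together took 4.19%, 5.27% and 2.42% of all counts in the Astro libraries of animals 1, 2 and 3, and 0.811%, 1.65% and 2.66% in the PAP libraries. Astro libraries averaged 3.96% ± 1.44 and PAP libraries 1.71% ± 0.926 (SD, n = 3 each). The difference of PAP minus Astro was -3.378, -3.615 and 0.238 percentage points in animals 1, 2 and 3. The sign turned in animal 3, where the Astro share was the lowest of its group and the PAP share the highest of its own.

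The word abundant fits some members better than others. In Astro, Cst3 ranked 1 to 2 among all genes by CPM, Cpe 2 to 4, Apoe 4 to 8, Clu 10 to 16 and Itm2b 32 to 71 over the 3 libraries. Itm2c ranked 238 to 638, Aplp2 471 to 1592 and App 1531 to 3038. On the scale of CPM per kilobase of exonic length, on which genes can be compared, the Astro level was 11050 ± 4310 (SD, n = 3) for Cst3, 4794 ± 2081 for Cpe, 3974 ± 1735 for Apoe, 1408 ± 568 for Clu, 678 ± 230 for Itm2b, 181 ± 63.2 for Itm2c, 44.7 ± 19.8 for Aplp2 and 7.88 ± 2.78 for App. Each neighbour in this order kept its place in all 3 Astro libraries. The SD of Cst3 and Cpe, of Cpe and Apoe, and of Clu and Itm2b reached into each other. With the length of the principal transcript in place of the exonic length, Apoe came above Cpe in 1 of the 3 libraries, and App, whose annotated exons hold retained introns, stood at 32.3 ± 11.4. In PAP the order per exonic kilobase held in all 3 libraries except for Cst3 over Cpe and Itm2c over Aplp2, each seen in 2 of 3. Per transcript kilobase, Cst3 over Cpe and Aplp2 over App held in 2 of 3 PAP libraries and Itm2c over Aplp2 in 1 of 3, so the order of the last 3 is not settled in PAP.

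Apoe measured 9033, 11910 and 4548 CPM in the Astro libraries of animals 1, 2 and 3 and 1090, 2164 and 4456 CPM in PAP. All 3 PAP values lay below all 3 Astro values, but in animal 3 the 2 compartments were nearly level. The means were 8497 ± 3710 and 2570 ± 1719 CPM (SD, n = 3), a log2 difference of -1.73 ± 0.58 (SE), 3.31-fold lower in PAP, with an edgeR adjusted p of 0.0912. Over 15 alternatives the log2 difference ran from -2.45, without PAP of animal 3, to -1.37, without Astro of animal 2. Apoe is encoded at chr7:19696109-19699188 on the minus strand (GRCm38, identifier ENSMUSG00000002985).

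Clusterin, the other apolipoprotein, measured 5908, 6019 and 2586 CPM in Astro and 897, 1647 and 2390 CPM in PAP. The groups did not overlap, and the Astro library of animal 3 was again the lowest of its group. Clu (chr14:65968483-65981547, plus strand, ENSMUSG00000022037) differed by -1.56 ± 0.47 on the log2 scale, 2.94-fold lower in PAP, with an edgeR adjusted p of 0.063. Within animals the log2 ratio of PAP to Astro was -2.72, -1.87 and -0.11, beside -3.05, -2.46 and -0.03 for Apoe.

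Cystatin C gave the highest Astro values of the members, 15510, 18530 and 7937 CPM, against 1201, 4482 and 7568 CPM in PAP. PAP of animal 1 was the low extreme, and the highest PAP value stopped just under the lowest Astro value. The log2 difference for Cst3 (chr2:148871722-148875692, minus strand, ENSMUSG00000027447) was -1.66 ± 0.66, with an edgeR adjusted p of 0.145. Over 15 alternatives it ran from -2.37, without PAP of animal 3, to -1.26, without PAP of animal 1.

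Carboxypeptidase E was at 12080, 18140 and 7305 CPM in Astro and 3255, 6189 and 10300 CPM in PAP. Here the groups overlapped, because PAP of animal 3 exceeded Astro of the same animal. Cpe (chr8:64592542-64693054, minus strand, ENSMUSG00000037852) had a log2 difference of -0.93 ± 0.49 with an edgeR adjusted p of 0.278, and the within-animal log2 ratios were -1.89, -1.55 and 0.50.

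Itm2b, whose human counterpart is mutated in familial British and Danish dementia, measured 2241, 2192 and 1127 CPM in Astro and 617, 538 and 973 CPM in PAP. It was lower in PAP in all 3 animals and the groups did not overlap. Its log2 difference was -1.38 ± 0.37, 2.61-fold lower, with an edgeR adjusted p of 0.0423, and the adjusted p was 0.206 with the animal as a block (range over 15 alternatives 0.00156 to 0.625). Its paralog Itm2c measured 534.9, 547.2 and 268.6 CPM in Astro and 137, 251 and 65.8 CPM in PAP, and PAP of animal 3, the highest PAP library for most members, was its lowest. Itm2c differed by -1.58 ± 0.56 on the log2 scale with an edgeR adjusted p of 0.107. Over 15 alternatives its difference ran from -2.22, without PAP of animal 2, to -1.28, without PAP of animal 3. Itm2b lies at chr14:73362226-73385289 on the minus strand (ENSMUSG00000022108), and Itm2c at chr1:85894281-85908675 on the plus strand (ENSMUSG00000026223).

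App and Aplp2 did not share this direction. App measured 76.2, 144 and 87.5 CPM in Astro and 56.6, 209 and 186 CPM in PAP, with overlapping groups and PAP values above Astro in animals 2 and 3. Its log2 difference was 0.56 ± 0.59 with an edgeR adjusted p of 0.62. Aplp2 measured 293, 361 and 134 CPM in Astro and 322, 147 and 272 CPM in PAP, again with overlap, and PAP was the higher compartment in animals 1 and 3. Its log2 difference of -0.09 ± 0.48, with an edgeR adjusted p of 0.936, was far smaller than its error, and the sign turned with other scalings, such as to 0.09 with library size alone. App lies at chr16:84949685-85173766 (minus strand, ENSMUSG00000022892) and Aplp2 at chr9:31149557-31211815 (minus strand, ENSMUSG00000031996). An annotated antisense gene, Gm49227, overlaps an App exon over a short stretch, and the strand setting of the counting is not given in the sources used here.

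**Figure D1:**
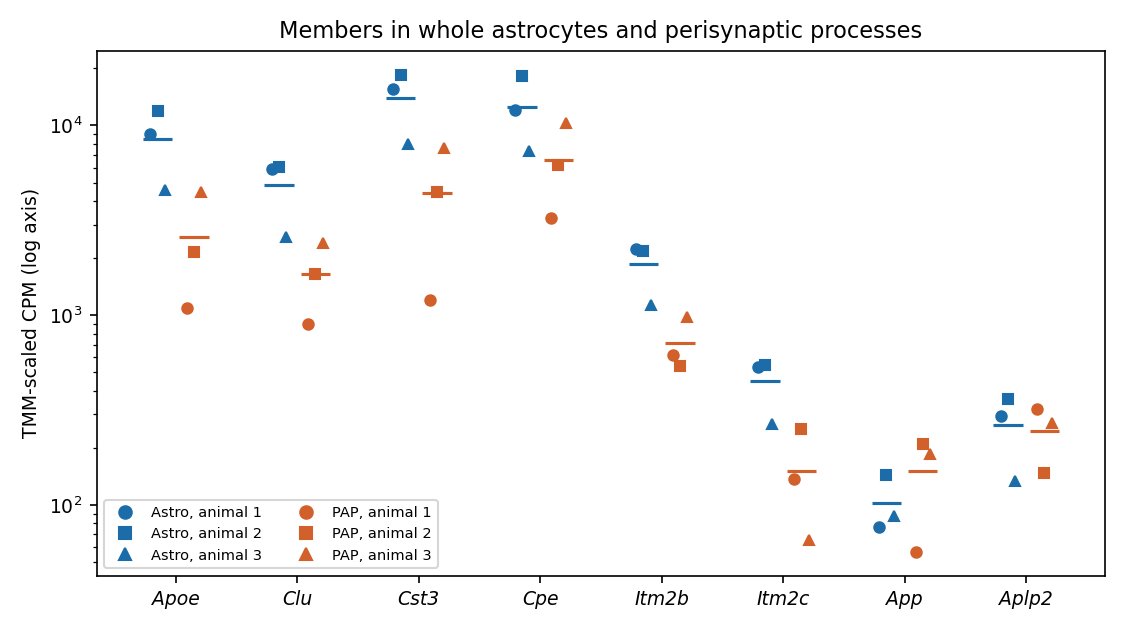
Each point is a library's TMM-scaled CPM (log axis) of a member in Astro (blue) or PAP (orange), marker shapes give the animal, and bars give the mean of 3. Apoe, Clu, Cst3, Itm2b and Itm2c have all PAP points below all Astro points, while Cpe, App and Aplp2 overlap.

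Of the 8 members, 7 had a negative log2 difference, 5 had no overlap with PAP below Astro, and 1 passed an adjusted p of 0.05, in the lower direction. Among all 14618 tested genes, 35.1% had all PAP libraries below all Astro libraries, 15.4% were called lower in PAP and 5.92% higher. With the animal as a block no member was called in either direction, and the shares over all genes were 0.0342% lower and 0.876% higher. At an unadjusted p under 0.05, edgeR's test without the block named 5 members, all lower, where it named 21.5% of all tested genes as lower and 9.39% as higher. DESeq2 called Apoe, Clu, Itm2b and Itm2c lower, and 23.6% of all tested genes lower and 11.5% higher. The median log2 difference was -1.47 over the members and -0.53 over all tested genes, and -1.48 and -1.63 with the block. Since the members were chosen with these values known, nothing is read from their counts or medians.

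The difference rested on animals 1 and 2. The median within-animal log2 ratio of PAP to Astro over the 8 members was -1.93, -1.71 and -0.05 in animals 1, 2 and 3. Over the 2229 other genes that averaged 100 CPM or more it was -0.67, -0.51 and -0.15, and over the 12 astrocyte markers -3.09, -1.85 and -0.99. Animal 3 was thus the nearest to 0 in all 3 sets. Itm2c alone among the members had its most negative ratio there, at -2.03, against -1.97 and -1.12 in animals 1 and 2.

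**Figure D2:**
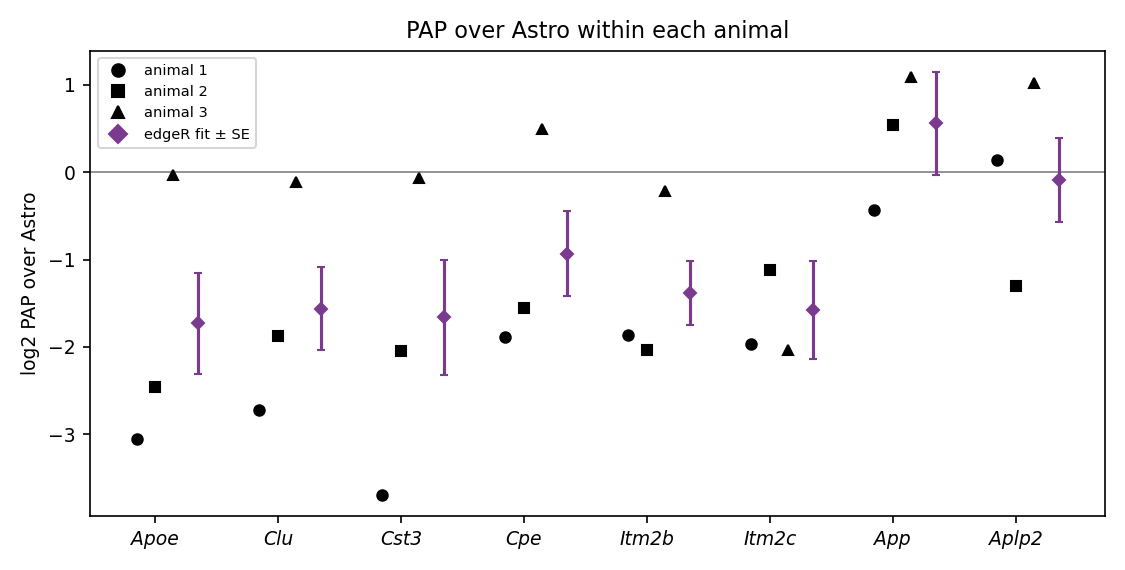
Black markers give the log2 ratio of PAP to Astro CPM in each animal and purple diamonds the edgeR log2 difference with its SE. Triangles (animal 3) lie near 0 for Apoe, Clu, Cst3 and Itm2b, at 0.50 for Cpe and at -2.03 for Itm2c.

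The members varied between animals more than most transcripts of whole astrocytes. Their coefficient of variation over the 3 Astro libraries was 34.0% to 44.3%, against a median of 12.9% for the 2237 genes that averaged 100 CPM or more. Large values also occurred outside the members: at that abundance, 11 other secreted astrocyte proteins had a median of 35.2% (11.8% to 55.2%) and the 12 astrocyte markers 21.1% (1.88% to 34.5%). Astro of animal 3 was the lowest Astro library for 7 of the 8 members (App was lowest in animal 1), which held for 38.4% of the other genes of that abundance, for 13 of 16 other secreted astrocyte proteins and for 7 of 12 astrocyte markers. In PAP the coefficient ran from 32.7% for Itm2b to 72.1% for Cst3, with values on both sides of the median of 48.1% over the same genes. PAP of animal 1 was the lowest PAP library for 5 of the 8 members, for 12 of the 16 other secreted proteins, for 11 of the 12 astrocyte markers and for 39.7% of the other genes of that abundance.

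Ratios within a library need no scaling between libraries and show how members moved relative to each other. The ratio of Itm2b to Itm2c per exonic kilobase was 3.82, 3.65 and 3.83 in Astro of animals 1, 2 and 3, and 4.12, 1.95 and 13.5 in PAP. The 95% exact binomial interval of the last value was 11.7 to 15.7, so counting error alone was smaller than the gap to the others. The span from the lowest to the highest ratio was 1.05-fold in Astro and 6.90-fold in PAP, and the PAP mean of 6.52 dropped to 3.04 without animal 3. In Astro the mean was 3.50 from technical replicates 1 to 4 and 4.11 from 5 to 8, a wider gap than that between animals. Apoe to Clu was steadier across compartments, at 2.46, 3.18 and 2.83 in Astro and 1.95, 2.11 and 3.00 in PAP, with overlap. App to Aplp2 was 0.118, 0.180 and 0.295 in Astro and 0.0795, 0.642 and 0.310 in PAP, also with overlap, and varied widely in both. Its PAP mean of 0.344 dropped to 0.195 without animal 2, beside an Astro mean of 0.198. Per transcript kilobase, a length chosen after seeing the data, it was 0.297, 0.455 and 0.747 in Astro and 0.201, 1.63 and 0.785 in PAP, so that App stood above Aplp2 in PAP of animal 2.

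**Figure D3:**
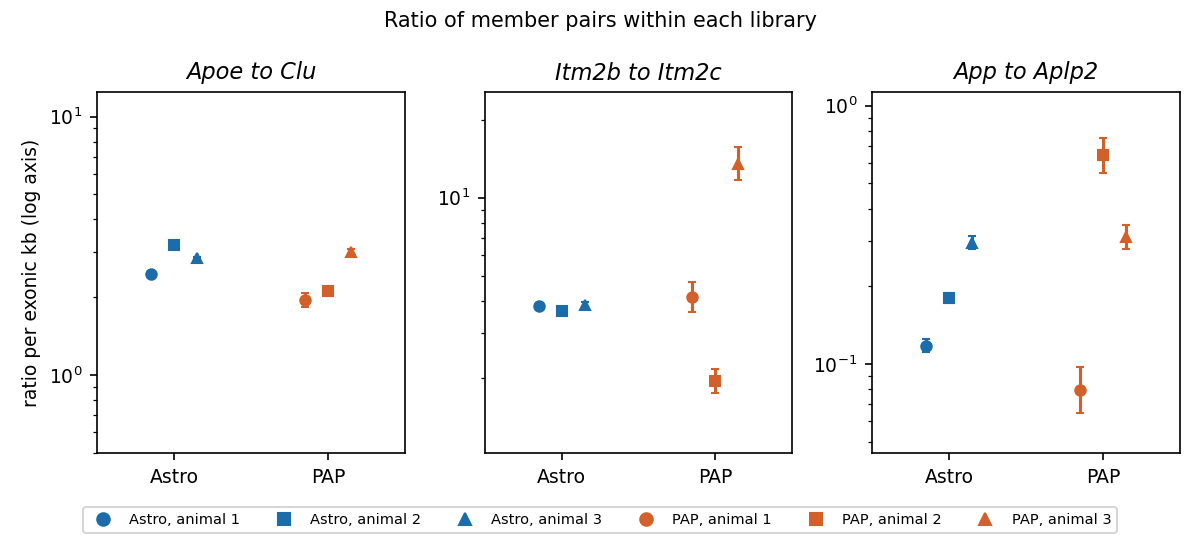
Points give the ratio of 2 members per exonic kilobase within each library (log axis, each panel spanning the same fold range), with 95% counting intervals. Itm2b to Itm2c is nearly constant in Astro (3.65 to 3.83) and spreads from 1.95 to 13.5 in PAP.

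Across the 28 pairs of members, the SD of the log2 ratio over 3 libraries was larger in PAP than in Astro for 25, with a median of 0.90 against 0.20. The 3 exceptions, named after their values were seen, were Clu to Cpe, Clu to App and Cst3 to App. The pair with the widest PAP span was Cst3 to Itm2c, at 1.17-fold in Astro and 13.1-fold in PAP, followed by Apoe to Itm2c (8.50-fold), Cst3 to Aplp2 (8.18-fold) and App to Aplp2 (8.08-fold). Apoe to Cpe stayed within 1.20-fold in Astro and 1.29-fold in PAP. The PAP libraries held fewer counts, and the part of depth and amplification in this spread was not tested.

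The signals of other cells moved with the compartments in their own way. Choroid plexus markers, which matter here because that epithelium also makes secreted proteins, summed to 3330, 24420 and 5519 CPM in Astro of animals 1, 2 and 3 and to 734, 7947 and 7443 CPM in PAP. The transthyretin gene Ttr made up most of it, and Otx2 and Aqp1 were at 0 in every PAP library. Otx2 alone of this list was called, as lower, through its Astro counts alone, and not with the animal as a block. Astro of animal 2, the highest Astro library for 7 members, was also the highest for this list. B-lineage markers summed to 39.6 to 63.6 CPM in Astro and 2739 to 5778 CPM in PAP, carried by Jchain, Igkc and Mzb1. These 3 were called higher with and without the animal as a block. Ms4a1 was called higher and Ighm lower without the block only. Of the other 5 genes of that list, Ms4a1 was at 66.3, 145 and 34.4 CPM in PAP and 0.868 CPM on average in Astro, Cd79b averaged 19.1 and 0.313 CPM, Ighm and Cd79a were at 0 in every PAP library, and Pax5 was at 0 in all 6 libraries. Microglia markers, from cells that also make Apoe and Cst3, summed to 51.2 to 103 CPM in Astro and 38.7 to 67.4 CPM in PAP, with overlap. Of the 12, Cx3cr1, P2ry12, Tmem119 and Aif1 were at 0 counts in every PAP library. Against the floor of 3 counts P2ry12 was at least 9.01-fold lower, but Tmem119 at least 1.71-fold and Cx3cr1 at least 1.66-fold only. Aif1 was near that floor in Astro as well. Of 11 tested, Cx3cr1, P2ry12 and Tmem119 were called lower, through their Astro counts alone, and were not called with the animal as a block. Another 6 exceeded every Astro library in at least 1 PAP library, with highest values of 29.9 CPM for C1qb, 19.8 for C1qc, 18.5 for Tyrobp, 16.5 for C1qa, 6.70 for Laptm5 and 6.63 for Fcer1g, none past the test. Neuron markers ran from 842 to 1374 CPM in Astro and 539 to 1503 CPM in PAP, and their members went both ways: of 12, Syt1 was called higher in PAP (log2 difference 1.40) and Snap25 (-2.22) and Nrgn (-1.91) lower, with none called once the animal was a block. Oligodendrocyte markers ran from 831 to 914 CPM and from 612 to 1063 CPM, and none of 10 was called. Endothelial markers were low, at 5.75 to 13.1 CPM in Astro and 14.9 to 24.5 CPM in PAP, without overlap. Ly6c1, with Tek in animal 2, made up most of the PAP sum, 6 of the 8 had at most 3 counts in every PAP library, and Cldn5, Cdh5, Slco1a4 and Esam were at 0 there. Calls in these lists stand beside the 15.4% of all tested genes called lower and the 5.92% called higher, and nothing is read from their number. The part of the choroid plexus, B-lineage, microglia, neuron, oligodendrocyte and endothelial signals in the members' values was not tested.

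Relative to the summed astrocyte markers, of which Gfap and Aldoc were on average the largest, the members looked different. The summed level of the 8 over that of the 12 astrocyte markers was 1.40, 2.15 and 0.997 in Astro and 2.07, 1.84 and 1.83 in PAP, so the groups overlapped. Of the markers, 5 of 12 fell in PAP and none rose (15.4% and 5.92% of all tested genes), with a median log2 difference of -1.58 against -0.53 over all tested genes, and with the animal as a block none was called.

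**Figure D4:**
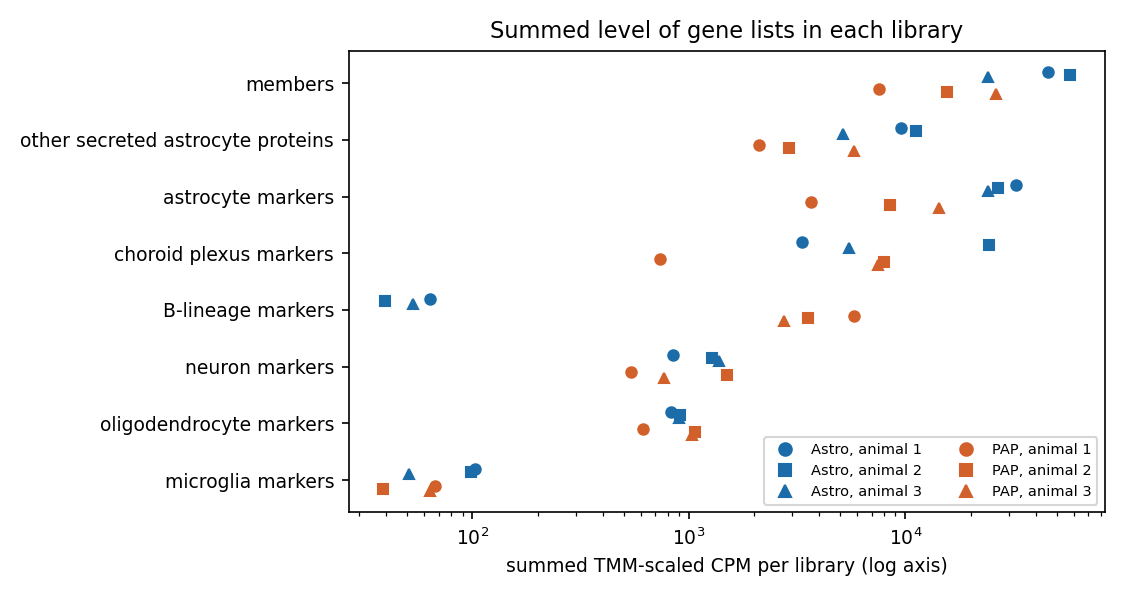
Each point is the summed TMM-scaled CPM of a gene list in a library (log axis), by compartment (colour) and animal (shape). The astrocyte markers lie higher in every Astro library, the members overlap (PAP of animal 3 is above Astro of animal 3), the choroid plexus markers peak in Astro of animal 2, and the B-lineage markers are higher in all PAP libraries.

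The proteins that work with the members were followed in 7 lists of 97 genes, of which 96 were matched and 88 tested. In PAP 12 fell, or 13.6% against the 15.4% of all tested genes, and none rose. At an unadjusted p under 0.05, 21 were lower and 1 higher, the cysteine protease gene Ctss, named after its value was seen, beside the 21.5% and 9.39% of all tested genes given above. The median log2 difference was -1.07, against -0.53 over all tested genes, and 68 of 88 were negative. With the animal as a block none of the 88 was called (20 lower and none higher at an unadjusted p under 0.05, against 17.9% and 5.42% of all tested genes). Leaving out any of the Astro libraries of animals 1, 2 or 3 left 0 lower calls in the lists, and 1 to 5 among all genes. Leaving out PAP of animal 1 gave 15 in the lists, and 3214 of the 16390 genes tested in that setting. Leaving out PAP of animal 2 or 3 gave 20 or 21 in the lists, and 17.8% or 20.2% of all genes tested in those settings. Of the 12 that fell, 10 had at most 3 counts in every PAP library, as did 86.8% of all genes called lower. These 10 passed the filter on low counts only through Astro, so they could only come out lower, and their calls and adjusted p are a description. The other 2 were Ctso and Pla2g7.

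Each list count below stands beside the 15.4% of all tested genes called lower and the 5.92% called higher, and with 9 to 16 tested genes a list nothing is read from its share. Partners of Apoe in lipid loading and uptake did not pass the test. Of 11 tested genes for lipidation and other apolipoproteins, and of 12 tested lipoprotein and sorting receptors, none was called in either direction. Lcat, the enzyme that esterifies cholesterol on lipoproteins, was at 250, 287 and 164 CPM in Astro and 31.1, 36.6 and 188 CPM in PAP, low in PAP of animals 1 and 2 only, with an edgeR adjusted p of 0.278. Nr1h2, the liver X receptor beta that drives Apoe transcription, was at 107.4 ± 14.04 CPM in Astro and 29.5 ± 34.1 CPM in PAP (SD, n = 3; edgeR adjusted p 0.269). Lrpap1, the chaperone of the LDL receptor family, was nearly level, at 155 ± 53.7 and 145 ± 80.5 CPM (log2 difference -0.10 ± 0.51, edgeR adjusted p 0.931), while Lrp10 was at 76.2, 125 and 55.2 CPM in Astro and 30.6, 0.515 and 0 CPM in PAP, without overlap (log2 difference -3.05 ± 1.87, edgeR adjusted p 0.355).

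Among 14 tested secretases and partners of App, 1 was called lower, through its Astro counts alone. That gene was Itm2a, the third member of the Itm2 family, at 9.46, 15.7 and 5.58 CPM in Astro and at 0 counts in every PAP library, at least 7.56-fold lower against the floor of 3 counts per library. Aplp1, the third App-family gene, was at 728 ± 272 CPM in Astro and 400 ± 240 CPM in PAP (log2 difference -0.86 ± 0.59, edgeR adjusted p 0.411). Psenen, a subunit of gamma-secretase, was at 69.8 ± 10.3 and 42.4 ± 15.5 CPM (edgeR adjusted p 0.475).

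Cst3 inhibits cathepsins, and of 13 tested cathepsins and cystatins 3 were called lower, Ctsh and Cst6 through their Astro counts alone. Cathepsin O (Ctso) was at 379, 415 and 241 CPM in Astro and 118, 148 and 156 CPM in PAP, without overlap. Its log2 difference was -1.29 ± 0.33 with an edgeR adjusted p of 0.0356. Cathepsin H (Ctsh), at 5.68 ± 4.27 CPM in Astro, had 2 counts over the 3 PAP libraries, a ratio of 19.1 with a counting interval of 5.30 to 158. Cst6, another cystatin, was at 3.61 ± 0.923 CPM in Astro and at 0 counts in PAP, at least 2.66-fold lower.

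Of 13 tested genes of prohormone processing and granules, the setting in which Cpe works, 2 were called lower, both through their Astro counts alone. Pcsk6, a furin-like convertase, was at 137, 147 and 130 CPM in Astro and had 4 counts over the 3 PAP libraries. That is a ratio of 238 with a counting interval of 92.9 to 873. Carboxypeptidase D (Cpd), a relative of Cpe, also had 4 counts in PAP against 10.8 ± 1.28 CPM in Astro, a ratio of 18.6 with a counting interval of 7.26 to 68.2.

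Of 9 tested peptidases and inhibitors that act on amyloid peptides, 3 were called lower, each through its Astro counts alone. The membrane metalloprotease Mmp14 was at 25.2 ± 7.56 CPM in Astro and had 3 counts in PAP, a ratio of 57.4 with a counting interval of 19.6 to 278. The protease inhibitor alpha-2-macroglobulin (A2m) and tissue plasminogen activator (Plat) had 0 counts in PAP, at least 12.6-fold and at least 6.13-fold lower. A2m was itself uneven in Astro, at 30.2, 17.8 and 3.25 CPM.

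Of 16 tested other secreted astrocyte proteins, 3 were called lower, Angpt1 and Chrdl1 through their Astro counts alone. Pla2g7, a secreted phospholipase that hydrolyses platelet-activating factor, was at 1923, 1802 and 825 CPM in Astro and 376, 210 and 463 CPM in PAP, without overlap. It had a log2 difference of -2.12 ± 0.45 with an edgeR adjusted p of 0.0216. Angiopoietin 1 (Angpt1) and the BMP antagonist chordin-like 1 (Chrdl1) had 0 counts in PAP, at least 16.9-fold and at least 9.40-fold lower. The list as a whole summed to 9556, 11180 and 5124 CPM in Astro and 2098, 2888 and 5798 CPM in PAP, so that here too Astro of animal 3 was low and PAP of animal 3 was above it. Ctso and Pla2g7 were the only called genes of the 7 lists with more than 3 counts in PAP libraries, and both had an adjusted p of 0.206 with the animal as a block. Over 15 alternatives the adjusted p ran from 0.000172 to 0.555 for Ctso and from 1.72e-05 to 0.595 for Pla2g7.

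**Figure D5:**
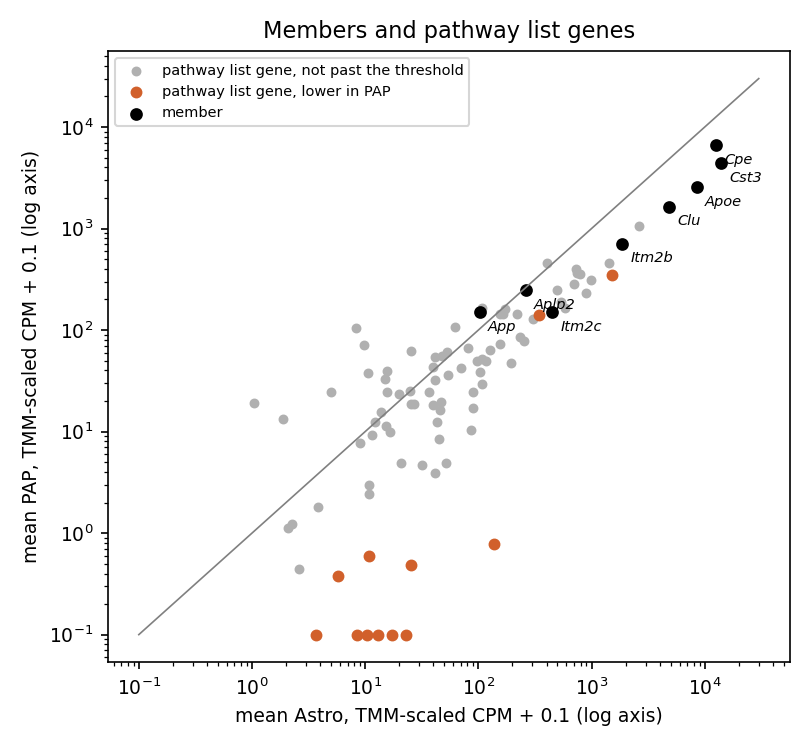
Mean TMM-scaled CPM plus 0.1 in PAP against Astro (log axes) for the members (black) and for the 88 tested genes of the 7 lists, those lower in PAP in orange and the others in grey. Of the orange genes, 10 lie at the bottom with at most 3 counts in every PAP library, and all members except App lie below the line of equal level.

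The genes whose pattern over the 6 libraries was nearest to each member were found by the root mean square difference of mean-centred log2(CPM + 1), among 4368 genes with a mean of at least 50 CPM. For Apoe these were the brain proteoglycan gene Bcan (0.16), the tetraspanin gene Tspan7 (0.20) and the gap junction gene Gja1 (0.24). Bcan, at 1094, 1220 and 626 CPM in Astro and 111, 277 and 543 CPM in PAP, was also the nearest to Cst3 (0.19), followed by the microRNA gene Gm23134 (0.20) and Fxyd1 (0.23). Clu was nearest to the protease inhibitor gene Serpine2 (0.13), then to Syn3 (0.14) and Tspan3 (0.18). Cpe was nearest to Emc7 (0.16), the matrix protein gene Sparc (0.17) and Naaa (0.18), and Itm2b to Tmed7 (0.13), Mlc1 (0.14) and the glutamate transporter gene Slc1a3 (0.16). The last 3 members had other neighbours. Itm2c was nearest to the sterol synthesis gene Msmo1 (0.30), Fam172a (0.31) and Ptgr2 (0.33), App to Sdr39u1 (0.17), Nfe2l1 (0.21) and Cnih2 (0.22), and Aplp2 to Pygo2 (0.25), Tgoln1 (0.29) and Yipf4 (0.32). Distances for Itm2c and Aplp2 were larger than for the other 6 members.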

How the data were processed

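The authors deposited raw counts per Ensembl gene for 48 samples, per the file headers. The submitters' processing notes name mm10, bcl2fastq 2.18.0.12, Trim Galore 0.4.1, STAR 2.5.2b, SAMtools and HTSeq 0.5.3; annotation and strand setting are not given in the sources used here. RNA was amplified before library preparation, per the labels' protocols. Counts were summed over 8 technical replicates. Symbols and lengths came from GENCODE M21 (GRCm38), which held 47224 of 47643 identifiers. Apbb3 was not analysed here.

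PAP was compared with Astro by edgeR 4.0.16 under R 4.3.3. Genes passed filterByExpr with a minimum count of 10, TMM factors were used, and the quasi-likelihood test was on group alone. Benjamini-Hochberg adjustment covered 14618 genes, with a threshold of 0.05. The test was also run on simulated counts with equal spread in both groups. It recovered the changed genes at the smaller simulated spread but not at the larger. The real groups differ in spread, so the simulation does not show how the test performs on them. DESeq2 1.42.0 and limma 3.58.1 gave alternatives. The main test is unpaired. Labels give the animal of each sample, so a blocked fit (animal as a term) is given beside it where it changes a call; deviations of same-animal libraries correlated at 0.033, 0.019 and -0.033. From each list, the 4 largest changes past the threshold were named, and where fewer than 2 passed also the 2 others highest in Astro per exonic kilobase; for each member, the 3 nearest genes. Members and lists were chosen with earlier results of these data known.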

Additional observations from a re-analysis of the deposited data

How the results depend on the processing

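The count of pathway genes lower in PAP (12) was 23 of 88 with the DESeq2 Wald test (23.6% of all tested genes), 0 with the replicate block and 0 to 21 when 1 library was left out. It was 0 when 1 Astro library, of any animal, was left out, and 15, 20 and 21 without PAP of animal 1, 2 and 3. In each of these settings 1 group held 2 libraries. The count higher (0) was 2 with the DESeq2 Wald test (Vgf and Ctss, named after their values were seen) and 0 to 2 when 1 library was left out. The cause was not tested. The Aplp2 log2 difference turned positive with library size alone (0.09), limma voom with group weights (0.01) and libraries thinned to equal depth (0.14), and ran from -0.38 to 0.25 when 1 library was left out; the cause was not tested. The other 7 members kept their sign in all 15 alternatives. Apoe and Clu passed the threshold in 2 of them (the DESeq2 Wald test and without PAP of animal 3), Itm2c in 2 (the DESeq2 Wald test and without PAP of animal 2), Itm2b in 7, and Cst3, Cpe and App in 0. The share difference of -2.25 percentage points ran from -3.02 to -1.60 over 9 alternatives. The median log2 difference of all tested genes was -0.53 with TMM and -0.37 with library size alone, so member differences shift with scaling. It was -0.22 with thinned libraries, where 11212 genes were tested in place of 14618. Among the members, the pathway lists and the marker lists, the block changed no call other than those given beside the results. The ratio of App to Aplp2 per transcript kilobase (a length chosen after seeing the data) averaged 0.5 in Astro and 0.871 in PAP, where animal 2 held the highest value (1.63). The PAP depth limits genes under about 1 CPM.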
